A study of Mus musculus with 12 samples.

Results

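Livers of Fah knockout mice taken off NTBC were compared with normal livers across all genes of the Affymetrix 430A expression array, with most room given to genes outside the hepatocyte and stress pathways. Fah encodes fumarylacetoacetate hydrolase, which carries out the final step of tyrosine degradation, and NTBC is a drug that stops the pathway upstream of it. Without the enzyme and without the drug, reactive late products of the pathway build up inside hepatocytes, which is the basis of hereditary tyrosinaemia. The comparison used 7 of the 12 samples of the series, chosen by their titles. The Fah off group held the 3 arrays titled as single knockouts, Fah off 1 to 3, each from a Fah knockout mouse given water without NTBC for 14 days. The normal group held 4 arrays of 1 mouse each, and these were 4 different conditions. Normal 1 was a wildtype mouse on water, normal 2 a wildtype mouse on NTBC, normal 3 a Fah knockout on NTBC and normal 4 a Fah p21 double knockout on NTBC. All mice were adults of 10 weeks, and RNA came from 10 mg of whole liver. The titles number the arrays as biological replicates, so the p-values measure the spread between these mice, and in the normal group that spread includes the differences between its 4 conditions. Normal 3 was the one control that matched the Fah off mice in genotype. The labels name neither strain nor sex.

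Each value is the signal of a probe set, an array brightness that the authors had scaled to a common mean on every array. Values of single livers are given below in the order normal 1, 2, 3, 4 and Fah off 1, 2, 3. Changes are Fah off minus normal on the scale log2(signal + 9.9), with the standard error of the limma fit (n = 3 against 4), and folds are those changes turned to a linear scale, which understates them for dim genes. A gene was called when its adjusted p was under 0.05, and "rose" and "fell" are used for called genes alone. Of 9195 genes tested, 36.2% were called, 19.7% higher and 16.5% lower in the Fah off livers, and the median change over all of them was 0.00. With at least 2-fold added, 14.5% were called, 8.28% higher and 6.2% lower. The groups did not overlap for 43.3% of the tested genes, with the Fah off livers above for 22.9% and below for 20.4%. These shares are the background against which the gene lists below are read. Precision is limited throughout by the small number of arrays, 3 against 4. Across probe sets the normal livers correlated with each other at 0.950 to 0.980. Fah off 1 and 2 correlated at 0.979, and Fah off 3 with them at 0.951 and 0.955. RNA of whole liver mixes all its cells, so a lower signal from fewer cells of a type and one from less RNA per cell cannot be told apart.

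Fah itself was read first as a check of the labels. Its signal was 6868, 7120.1, 181.9 and 233.0 in the normal and 113.5, 100.8 and 107.5 in the Fah off mice. The wildtype livers were far above the others, and the 3 Fah off livers were below the 2 knockout livers on NTBC. The change over all 4 normal livers (-3.39 ± 1.16, adjusted p = 0.0415) therefore mixes genotypes and was the least precise of the changes named here.

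The largest changes were ranked with families of hepatocyte and stress genes, listed single genes and unnamed gene models left aside. Among the called genes without overlap that were left aside, 12 rose more than Nt5e, the first of the ranked rises, and 10 fell more than Aspdh, the first of the ranked falls. Ly6d (7.38 ± 0.20), Spink1, Fabp4, Sprr1a and Upp2 were among those left aside and are taken up with their gene lists. Nt5e, which encodes the surface enzyme CD73 that makes adenosine from AMP, had signals of 86.7, 79.1, 32.0 and 38.5 in the normal and 1246, 1448 and 1797 in the Fah off mice. The lowest Fah off liver was more than an order of magnitude above the highest normal one, and the rise was 23.1-fold (4.53 ± 0.29, adjusted p = 1.32e-06). Fgf21, a hormone that the liver releases in fasting and amino acid shortage, read 72.4, 67.9, 24.2 and 141.6 in the normal and 2068, 1278 and 1669 in the Fah off mice. It rose 21.8-fold (4.44 ± 0.50). Cidec, a protein that joins lipid droplets into larger ones, read 35.1, 34.6, 35.1 and 78.6 in the normal and 835.1, 973.5 and 1336 in the Fah off mice and rose 19.5-fold (4.29 ± 0.26). Itga6, the laminin-binding integrin alpha 6 subunit, read 8.2, 8.6, 13.0 and 8.7 in the normal and 254.8, 365.9 and 514.5 in the Fah off mice, so it went from about the size of the offset in all 4 normal livers to a plain signal in all 3 Fah off livers (4.27 ± 0.27). Its other probe set gave the same direction. Slc1a4, a carrier of alanine, serine and cysteine, rose 18.1-fold and was highest in Fah off 3 (856.9, 1137 and 2104 off NTBC against 30.5 to 88.8). Unc5b, a receptor for netrins, rose 13.2-fold, and Defb1, an antimicrobial defensin of epithelia, 12.7-fold. Lgals3, the sugar-binding protein galectin-3, read 679.4, 1216 and 2482 off NTBC against 70.4 to 182.3. Slc48a1, a haem carrier of endosomes and lysosomes, had the largest change relative to its error among the ranked rises (3.31 ± 0.14), with normal livers at 387.4 to 501.6 and Fah off livers at 3977 to 4922. Other rises that were large relative to their error were those of Psrc1, a microtubule protein of mitosis (3.08 ± 0.13), Atpif1, the inhibitor of mitochondrial ATP synthase (2.52 ± 0.13), and Maoa, the monoamine oxidase that breaks down serotonin (2.80 ± 0.14). The glutathione enzyme Mgst2, Tinag, the membrane adaptor Sdcbp2, Mfsd4a, the sialyltransferase St3gal6, Ptgr1, the acyltransferase Mogat2, the BMP ligand Bmp8b, the zinc finger gene Zbtb21, Pgd of the pentose phosphate pathway and Cd36 completed the 20 ranked rises, which spanned 3.31 to 4.53. Mgst2 and Tinag were not uniform among the controls: Mgst2 read 6.6, 9.3, 67.6 and 11.7 in the 4 normal livers, and Tinag, a glycoprotein of basement membranes, was likewise highest in the Fah knockout on NTBC, at 48.4 there.

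**Figure D1:**
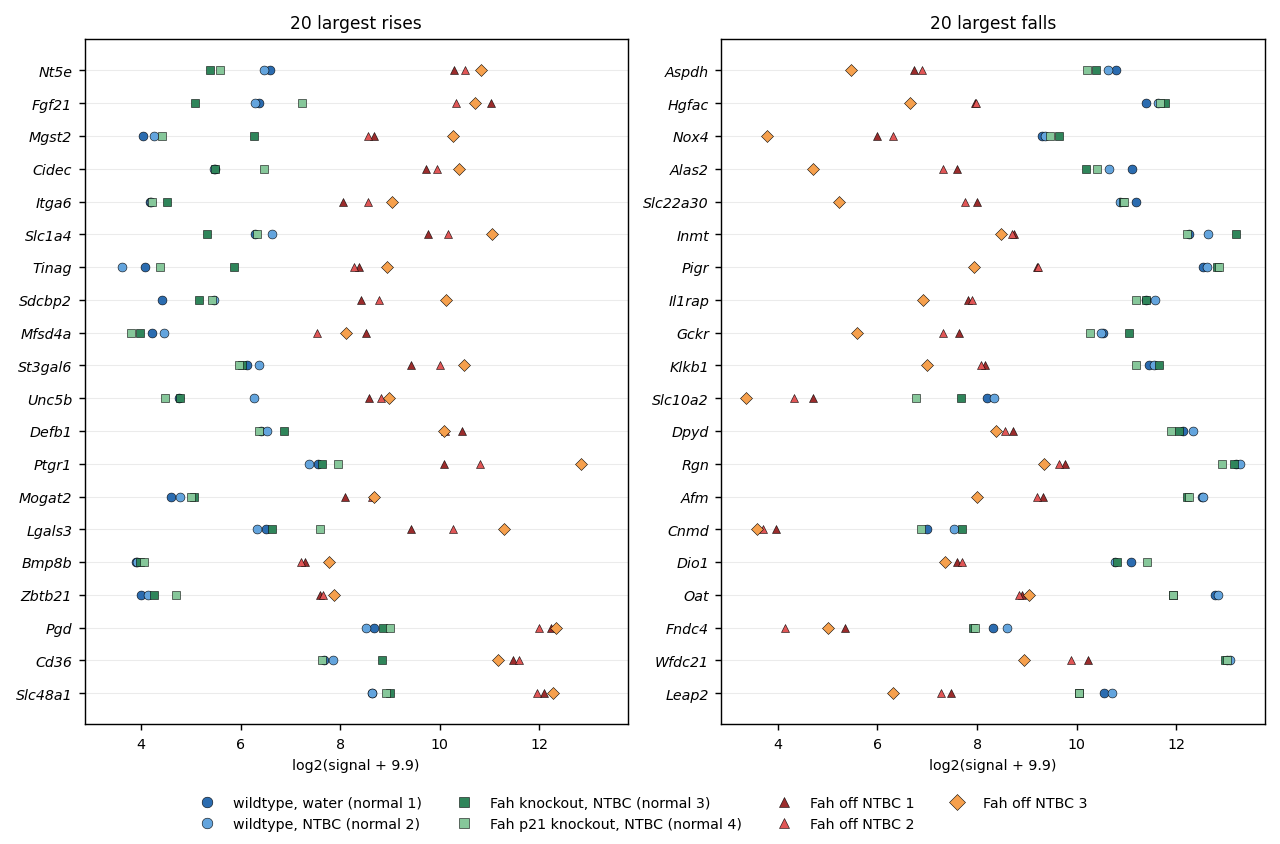
Signals of the 20 ranked rises (left) and the 20 ranked falls (right), which leave out the families and genes named above, 1 point per liver, on the log2(signal + 9.9) scale. In every row the 3 Fah off livers lie apart from the 4 normal livers, as the rule required. Fah off 3 (diamonds) is the lowest point for all the falls but Oat and Fndc4, with Nox4 at a signal of 3.9 against 53.7 and 69.8.

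Of the ranked falls Aspdh, named for an aspartate dehydrogenase domain, read 1769, 1567, 1324 and 1178 in the normal and 96.1, 109.1 and 34.3 in the Fah off mice and was the largest of them (-4.14 ± 0.30). Rgn, regucalcin, which takes part in vitamin C synthesis in rodents, read 9368, 9935, 9083 and 7721 in the normal and 860.6, 789.2 and 640.5 in the Fah off mice, and fell by 3.55 ± 0.15 on the log2 scale (adjusted p = 6.55e-08). Hgfac, the protease that activates hepatocyte growth factor, read 2684, 3156, 3499.6 and 3256 in the normal and 238.3, 243.7 and 91.0 in the Fah off mice. It was 17.0-fold lower (-4.09 ± 0.29). Pigr, the receptor that carries immunoglobulin A into bile, read 5944, 6278, 7213 and 7426 in the normal and 580.0, 592.3 and 235.9 in the Fah off mice (-3.92 ± 0.29). Il1rap, the accessory chain of the interleukin-1 receptor, was 14.4-fold lower (-3.84 ± 0.22), at 110.9 to 228.2 against 2337 to 3040.1, but its 2 other probe sets were lower by much less, one called (-0.62 ± 0.21) and one not (-0.43 ± 0.23). Inmt, an indole methyltransferase, was at 345.2 to 418.2 off NTBC and at 4755 to 9424 in the normal livers (-3.94 ± 0.25). Gckr, the nuclear partner that holds glucokinase inactive, read 188.6, 150.3 and 38.3 against 1222 to 2102. Leap2, a circulating blocker of the ghrelin receptor, was 9.99-fold lower. Phyh, the first enzyme of phytanic acid breakdown in peroxisomes, was below the 20 ranked falls in size and had the largest change relative to its error under the same exclusions (-3.11 ± 0.09, adjusted p = 6.32e-09), with 1319 to 1479.6 off NTBC against 11655 to 12782. The fall of Azgp1, a secreted zinc-binding glycoprotein, was smaller but also large relative to its error (-2.14 ± 0.12, 1933 to 2421 against 9354 to 10279). Nox4, Alas2, Slc22a30, Klkb1, the bile acid carrier Slc10a2, Dpyd, the vitamin E-binding Afm, Cnmd, Dio1, the ornithine aminotransferase Oat, Fndc4 and Wfdc21 completed the 20 ranked falls, which spanned -3.32 to -4.14. Slc22a30 belongs to a family of close copies, so its signal is uncertain between members.

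Promoter sequences are shown for Fgf21 and Cidec, 2 of the ranked rises, and Aspdh, the first of the ranked falls. Each window shown holds a motif that was searched for, so these are examples and not a sample of the ranked genes. The sequences are the 250 bases before the RefSeq start site on GRCm38.p6, read along the gene. Of the ranked genes 16 of the 20 rises and 17 of the 20 falls had such an entry. Capitals mark the motif named for each.
Fgf21, chr7:45615491-45615740, minus strand: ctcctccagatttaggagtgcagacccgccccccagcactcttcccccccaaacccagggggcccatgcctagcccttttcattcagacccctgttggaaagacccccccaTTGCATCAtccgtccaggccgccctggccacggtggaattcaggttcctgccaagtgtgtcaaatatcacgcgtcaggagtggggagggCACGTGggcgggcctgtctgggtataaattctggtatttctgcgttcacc
Cidec, second listed start site, chr6:113434765-113435014, minus strand: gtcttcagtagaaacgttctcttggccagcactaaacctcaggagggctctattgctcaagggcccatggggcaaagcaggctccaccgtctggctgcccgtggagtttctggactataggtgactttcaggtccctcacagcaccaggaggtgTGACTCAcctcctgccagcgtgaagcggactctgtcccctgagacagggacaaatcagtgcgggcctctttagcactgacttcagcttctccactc
Aspdh, chr7:44465185-44465434, plus strand: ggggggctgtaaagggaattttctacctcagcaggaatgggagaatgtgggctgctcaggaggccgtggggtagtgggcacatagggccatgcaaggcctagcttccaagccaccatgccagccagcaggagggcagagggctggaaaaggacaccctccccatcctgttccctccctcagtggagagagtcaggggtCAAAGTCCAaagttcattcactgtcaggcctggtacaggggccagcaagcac
In the Fgf21 window TTGCATCA, an element of the kind bound by ATF4 with C/EBP proteins, lies 139 to 132 bases before the start, and the E-box CACGTG lies 50 to 45 bases before it. TTGCATCA was also found for Ptgr1, so 2 of the 16 rises and 0 of the 17 falls held it, against 0.92% of all 27025 genes with an entry. CACGTG was held by 2 of the rises (Fgf21 and Zbtb21) and 1 of the falls (Pigr), against 6.86% of all genes. In the Cidec window the capitals mark TGANTCA, the AP-1 site, which 3 of the rises (also Mgst2 and Sdcbp2) and 1 of the falls (Slc10a2) held, against 7.82%. The other listed start site of Cidec held none. The Aspdh capitals mark CAAAGTCCA, the motif of the hepatocyte factor HNF4, which 0 of the rises and 1 of the falls held, against 0.45%. The core of the antioxidant response element, TGACNNNGC, was held by 0 of the rises and by Klkb1 among the falls, against 11.5%. Both strands were searched, and the motifs do not overlap in the windows shown. A match describes these letters alone.

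Genes of lipid storage stood out among the gene lists. Lipid droplets hold triglyceride under a coat of perilipin and CIDE proteins, and lipases and their cofactors release it again. Of 31 tested genes 14 rose and 5 fell, with a median change of 0.53. Fabp4, a fatty acid carrier best known from adipocytes and macrophages, had signals of 122.6, 134.8, 69.0 and 132.3 in the normal and 2738, 3256 and 2727 in the Fah off mice, a rise of 24.0-fold (4.58 ± 0.21, adjusted p = 1.08e-07). Of its 2 other tested probe sets one rose as well (3.96 ± 0.28) and one, at 48.9 to 98.2 against 54.4 to 107.0, was not called (-0.08 ± 0.33). The adipocyte hormone gene Adipoq was at 14.4 to 38.0 in all 7 livers, under the filter on dim probe sets. Cidea read 8.5, 26.2, 6.9 and 6.5 in the normal and 149.5, 178.7 and 133.4 in the Fah off mice and rose with Cidec (2.98 ± 0.34), whereas Cideb, the CIDE gene that normal hepatocytes use for lipoprotein loading, fell (-1.34 ± 0.12, 1175 to 1262 against 2680 to 3354). The droplet coat gene Plin2 rose 1.82-fold (0.86 ± 0.12), but Plin3, Plin4 and Plin5 were not called, at -0.18 ± 0.15, 0.35 ± 0.23 and -0.24 ± 0.34. Cd36, the fatty acid uptake receptor, read 194.6, 220.8, 448.9 and 187.7 in the normal and 2815, 3078 and 2296 in the Fah off mice and rose 10.6-fold. Both monoacylglycerol acyltransferases rose, Mogat2 (3.61 ± 0.22) and Mogat1 (1.91 ± 0.20), while Dgat2, which adds the last acyl chain, fell (-0.51 ± 0.10) and Dgat1 was not called (0.09 ± 0.14). On the side of breakdown the lipase Pnpla2 (1.15 ± 0.15), its activator Abhd5 (2.23 ± 0.16) and the lysosomal lipase Lipa (1.13 ± 0.14) rose. Hilpda, an inhibitor of Pnpla2, also rose (1.84 ± 0.17), and its other inhibitor G0s2 was not called (0.79 ± 0.40), with 1228, 1099 and 358.9 in the Fah off livers. Pparg, the nuclear receptor that drives adipocyte genes, was at 216.4 to 226.2 off NTBC against 34.7 to 65.3 (1.96 ± 0.20).

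Membrane lipid genes followed with smaller changes. Of 44 tested sphingolipid and phospholipid genes 13 rose and 5 fell (median 0.2), and the falls were 2 without Fah off 2, Fah off 3 or normal 2. Sptlc2, a subunit of the enzyme that begins sphingolipid synthesis, read 216.2, 167.1, 193.3 and 165.6 in the normal and 1086, 1000.1 and 1488 in the Fah off mice and rose 6.09-fold. Sgms1, which makes sphingomyelin, rose by 1.59 ± 0.23. In the pathway to phosphatidylcholine Chka, choline kinase alpha, rose (1.42 ± 0.17), and Pemt, the liver enzyme that makes the same lipid by methylation, fell (-1.94 ± 0.23, 791.6 to 993.1 against 2444 to 4330.3). Pcyt2, of phosphatidylethanolamine synthesis, fell as well (-1.44 ± 0.19). Among 26 eicosanoid genes 8 rose and 3 fell, which became 4 and 1 without Fah off 1, 4 and 2 without Fah off 2, 6 and 1 without normal 1 and 7 and 1 without normal 2. Ptgr1, which inactivates prostaglandins and leukotriene B4, was the largest of them and the most uneven among the Fah off livers (1080.3, 1779.8 and 7284, against 157.2 to 238.8 in the normal livers). Pla2g7, the secreted hydrolase of platelet-activating factor, read 130.8, 148.4, 172.0 and 143.6 in the normal and 878.4, 1199 and 1519.9 in the Fah off mice (2.90 ± 0.21).

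Peroxisome genes fell more often than the background, and their share of rises was less far above it. Peroxins import enzymes into peroxisomes, where very long and branched fatty acids are shortened. Of 18 tested genes 5 rose and 9 fell (27.8% and 50% of the list, against 19.7% and 16.5% of all genes). Abcd2, a carrier of very long-chain fatty acids that is low in normal liver, read 3.1, 6.0, 86.1 and 2.6 in the normal and 244.2, 283.1 and 219.4 in the Fah off mice (3.53 ± 0.60). The single high control was the Fah knockout on NTBC. Pex11a, which makes peroxisomes divide, rose (1.25 ± 0.19), and Pxmp2, a membrane channel, fell (-1.99 ± 0.17). The import receptor gene Pex7 fell (-1.01 ± 0.14, 872.3 to 1171 against 1846 to 2249). Pex6 fell at its brightest probe set (-1.05 ± 0.12), but 1 of its other probe sets was called higher (2.18 ± 0.20), so its direction is not settled. No other gene chosen by the naming rule had a called probe set of the opposite direction, among 134 with another tested probe set. For 93 of these 134 all the other probe sets were called the same way, and for 40 at least one was not called.

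Genes of the actin cytoskeleton rose far more often than they fell. Of 51 tested genes 21 rose and 1 fell (41.2% and 1.96% of the list, against 19.7% and 16.5% of all genes), with a median of 0.31. Pfn2, a profilin that feeds monomers to growing filaments and is best known from brain, read 97.2, 82.6, 62.7 and 88.2 in the normal and 868.6, 687.5 and 582.7 in the Fah off mice (2.96 ± 0.19, adjusted p = 1.13e-06). Tpm1, a tropomyosin that lines filaments, read 137.1, 119.9, 155.1 and 156.2 in the normal and 768.6, 831.4 and 1102 in the Fah off mice (2.57 ± 0.16). Pdlim7 (2.31 ± 0.21), Tmsb10 (1.75 ± 0.14) and Cnn2 (1.31 ± 0.25) rose as well, and so did the bulk component gamma-actin, Actg1, at 3905 to 4735 against 1619.5 to 1976 (1.18 ± 0.12). Acta2, the smooth muscle actin of activated stellate cells and vessel walls, was not called (0.01 ± 0.21), with 306.1, 253.7, 218.3 and 360.6 in the normal and 284.0, 367.7 and 213.8 in the Fah off mice. Pls3, a bundling protein, was the member that fell (-0.97 ± 0.28), and it was not called without Fah off 1 or without normal 2.

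Junction genes moved in both directions, and receptors for matrix were called about as often as all genes. Of 38 tested junction genes 11 rose and 8 fell. Cldn4, a claudin of many other epithelia, read 33.3, 72.7, 98.2 and 86.4 in the normal and 446.7, 324.7 and 297.6 in the Fah off mice (2.21 ± 0.30). Cldn3 fell (-1.06 ± 0.17). Among cadherins Cdh1 (E-cadherin) rose to 902.7 to 1412 from 229.0 to 462.3 (1.66 ± 0.23), while Cdh2 (N-cadherin) fell to 360.5 to 445.4 from 835.5 to 1138 (-1.21 ± 0.16). The groups did not overlap for either gene. Gap junction genes split likewise: Gja1, connexin 43, rose 3.9-fold (1.97 ± 0.17), and Gjb1 and Gjb2, the connexins of hepatocytes, fell (-0.62 ± 0.11 and -0.95 ± 0.15). Of 26 tested integrins and other matrix receptors 7 rose and 2 fell, and 4 of the 10 integrins were among the rises. These are 26.9% and 7.69% of the list, against 19.7% and 16.5% of all genes, with a median of 0.09. Itga6 and the tetraspanin Cd9 (2.80 ± 0.23, 1091, 1442 and 2306 off NTBC) rose, Itga3 rose less (0.87 ± 0.20), and the 2 falls were those of the heparan sulfate carriers Sdc2 (-1.26 ± 0.13) and Sdc4 (-1.20 ± 0.14).

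Genes of the Hippo pathway and its targets rose where they were called. Lats kinases hold the co-activators YAP and TAZ out of the nucleus, and their target genes rise when they enter it. Of 18 tested genes 8 rose and the other 10 were not called (44.4% against the 19.7% background of rises), and 6 of the 10 tested targets were among the rises. Nt5e, Ajuba (2.65 ± 0.29), Crim1 (1.95 ± 0.52), Ptpn14 (1.53 ± 0.39), Fstl1 (2.84-fold) and Ccn1 (1.15 ± 0.23) were those targets. Ajuba, itself an inhibitor of Lats kinases, read 78.4, 102.7, 93.2 and 111.1 in the normal and 544.8, 733.6 and 693.8 in the Fah off mice. Ccn1 read 120.1, 159.5, 143.5 and 234.8 in the normal and 372.6, 287.2 and 456.9 in the Fah off mice, a small step beside the other targets. Its other probe set was not called (0.65 ± 0.31). The kinases Lats1 and Lats2 were the other called members, with changes under 1 that lost their calls without one or another liver. With median scaling or quantile normalization 7 members rose and 2 fell, and without Fah off 1 the rises were 5. Klf6 and Klf4, zinc finger factors of early growth responses, and Sox4, a factor of progenitor cells, were the largest rises of the Kruppel-like and Sox families (4 higher and 5 lower of 24): Klf6 read 44.1 to 60.5 in the normal and 423.9 to 697.9 in the Fah off mice, Sox4 rose 8.38-fold and Klf4 read 39.9 to 76.8 against 228.0 to 466.1. A further Sox4 probe set was not called (-0.22 ± 0.365), while its other tested ones rose. Klf15, which adjusts amino acid and glucose metabolism to fasting, fell (-1.50 ± 0.19).

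**Figure D2:**
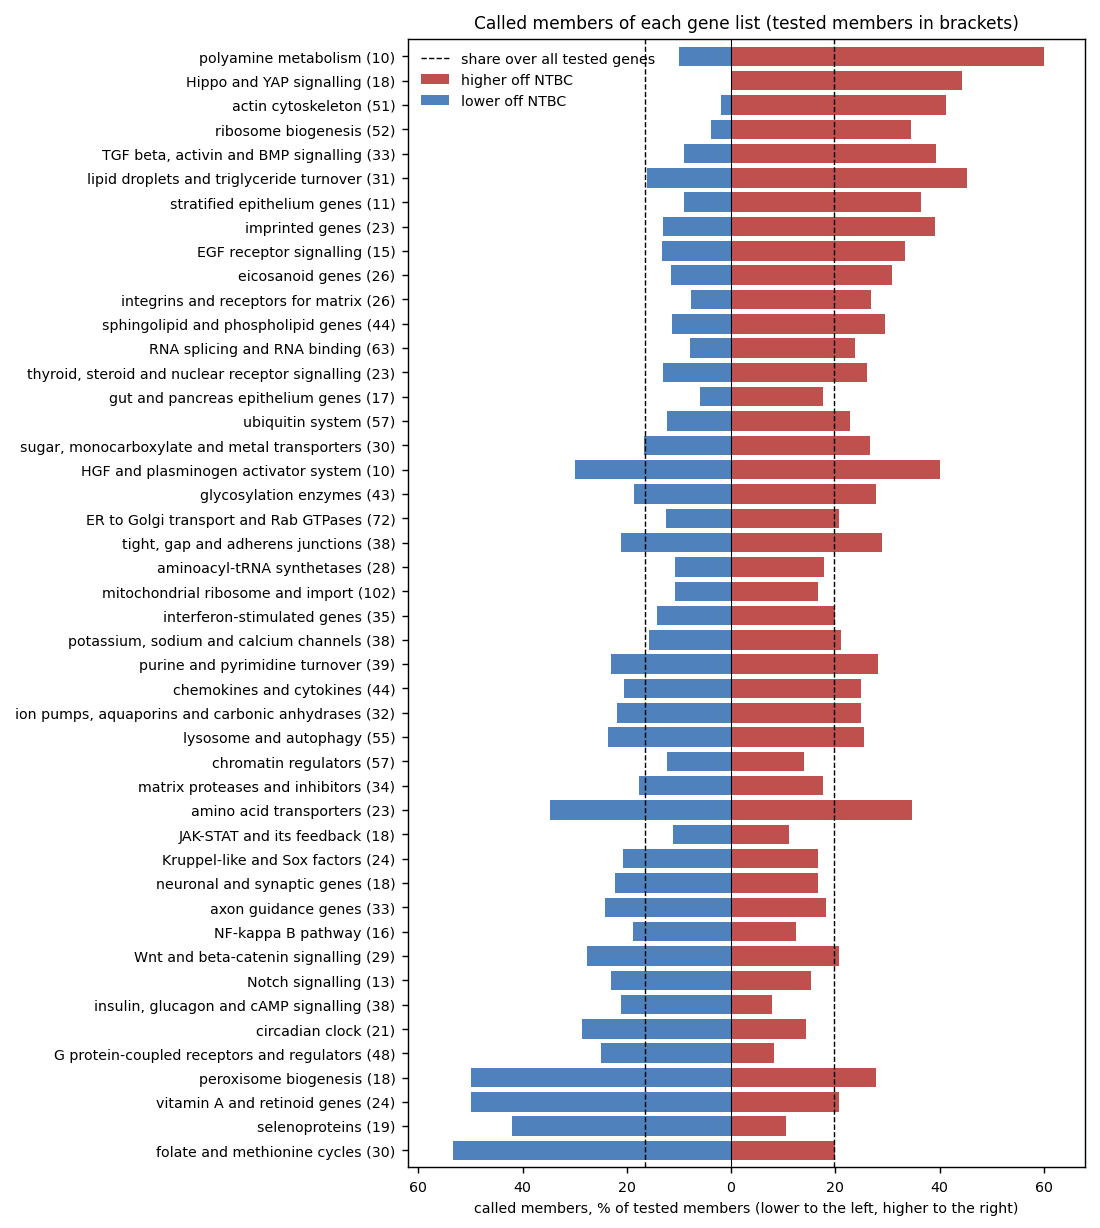
Share of tested members called higher (right) and lower (left) in the Fah off livers for the lists reported with at least 10 tested members, with dashed lines at 19.7% and 16.5%, the shares over all tested genes. Polyamine metabolism, Hippo signalling, the actin cytoskeleton and ribosome biogenesis reach past the right line and stay short of the left one, and folate and methionine cycles, retinoid genes, peroxisome genes and selenoproteins reach furthest past the left line.

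Called ligands and receptors of growth factor systems went in both directions. In EGF receptor signalling, a pathway of hepatocyte growth, 5 of 15 genes rose and 2 fell, and 3 rose without Fah off 2, Fah off 3 or normal 2. Against the knockout livers on NTBC alone 1 rose and 3 fell. The ligand genes Hbegf (1.30 ± 0.39; its other probe set was not called) and Nrg4 (1.22 ± 0.37) rose, and the receptor Egfr fell to 809.2 to 890.6 from 1978 to 2943 (-1.51 ± 0.16). The feedback phosphatase Dusp6 read 226.5, 199.9, 318.9 and 299.5 in the normal and 1679, 1649 and 2372 in the Fah off mice (2.82 ± 0.22), while the receptor inhibitor Errfi1 fell (-1.44 ± 0.15). In the FGF system Fgf21 was the only called ligand of 3 tested, and the receptors Fgfr4 (-1.82 ± 0.19) and Fgfr3 (-1.22 ± 0.33) fell, 2 of 9 genes in all and 4 with median scaling or quantile normalization. The other probe set of Fgfr3 was not called (-0.45 ± 0.29). The HGF system joins a growth factor to the proteases that activate it. Hgf, made by stellate cells, rose (1.20 ± 0.18, 278.7 to 323.4 against 99.2 to 159.6), its activator Hgfac fell, and the related factor Mst1 fell (-2.15 ± 0.20). The other probe set of Hgf was not called (0.88 ± 0.40). Other members of the group rose, with the plasminogen activator Plat at 325.5, 357.8 and 590.4 against 47.2 to 97.3 (2.50 ± 0.27), the matriptase St14 at 253.2 to 297.2 against 31.0 to 84.9 (2.40 ± 0.26), and the urokinase receptor Plaur (1.42 ± 0.21). Plasminogen (Plg), the substrate of Plat, fell (-1.21 ± 0.09).

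In TGF beta, activin and BMP signalling, which limits hepatocyte growth and drives matrix deposition, 13 of 33 tested genes rose and 3 fell (median 0.37). The receptor Tgfbr2 read 343.1, 256.9, 413.5 and 659.4 in the normal and 2424, 2627 and 2706 in the Fah off mice (2.68 ± 0.25, adjusted p = 1.44e-05), and a second probe set also rose (2.31 ± 0.36). The ligands split. Tgfb1 (0.58 ± 0.14) and Bmp6 (1.21 ± 0.29) rose, and the activin chains Inhba (-2.05 ± 0.58), Inhbc (-1.88 ± 0.22) and Inhbe (-1.24 ± 0.25) fell. Inhba was uneven among the controls (154.5, 29.0, 166.0 and 332.3) and even off NTBC (25.1, 25.7 and 21.3). The activin trap Fst rose by 1.01 ± 0.26 and the pseudoreceptor Bambi by 1.41 ± 0.37. Of the targets Id1 read 151.3, 225.3, 254.6 and 181.8 in the normal and 660.9, 521.7 and 851.1 in the Fah off mice (1.69 ± 0.21), and Tgfbi (1.08 ± 0.17) and Id3 (0.69 ± 0.17) rose. Against the knockout livers on NTBC alone 8 members rose and 3 fell.

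Wnt signalling, which sets the enzymes of hepatocytes around the central vein, had 6 rises and 8 falls of 29. Among its pericentral targets Rgn, Oat, Slc1a2 (-2.38 ± 0.35), Cyp2e1 (-0.77 ± 0.10) and Glul (-0.56 ± 0.15) were among the 6 of 12 that fell, and Slc1a4, Ahr (0.88 ± 0.14) and Aldh3a2 (1.30 ± 0.15) rose. Notum, a secreted inactivator of Wnt ligands, fell (-1.73 ± 0.19, 161.3 to 274.8 against 600.6 to 846.7). Wnt4, a ligand, read 42.4, 5.4, 10.7 and 18.2 in the normal and 131.8, 190.2 and 208.9 in the Fah off mice (2.82 ± 0.40). In the Notch pathway 2 of 13 tested genes rose and 3 fell (38.5% called, against 36.2% of all genes). Hes6, a transcription factor of the Hes family, had the largest change (-2.41 ± 0.25). Notch1 rose by 0.73 ± 0.18, but its other probe set was not called (0.31 ± 0.21). Against the knockout livers on NTBC alone 0 Notch genes rose and 3 fell.

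Imprinted genes, which are expressed from one parental allele and many of which govern fetal growth, had 9 rises and 3 falls of 23 tested (median 0.54). Phlda2, a growth-limiting gene of placenta, read 13.3, 23.0, 13.0 and 16.3 in the normal and 288.1, 272.5 and 143.8 in the Fah off mice (3.17 ± 0.28, adjusted p = 9.74e-06). Peg3, a zinc finger factor, read 71.1, 77.7, 163.9 and 157.7 in the normal and 857.5, 1093 and 820.7 in the Fah off mice (2.95 ± 0.29), and its 2 other tested probe sets rose too (2.13 ± 0.27 and 4.23 ± 0.34). Cdkn1c, the inhibitor p57 of cyclin-dependent kinases, read 42.5, 9.4, 64.4 and 23.8 in the normal and 343.3, 316.9 and 217.7 in the Fah off mice (2.90 ± 0.39). Igf2, a fetal growth factor, read 120.7, 144.1, 90.7 and 91.1 in the normal and 377.6, 574.0 and 1041 in the Fah off mice (2.37 ± 0.36) and was uneven off NTBC. Plagl1 (2.17 ± 0.27), Grb10 (1.56 ± 0.32) and Impact (1.58 ± 0.16) rose as well, and the potassium channel gene Kcnq1 (-1.61 ± 0.45) had the largest of the falls. Members expressed from the maternal allele (5 of 13 higher) and from the paternal allele (4 of 10 higher) were both among the rises. Dlk1 was not called (0.69 ± 0.25, adjusted p = 0.0525). The falls went from 3 to 0 without Fah off 2 and to 1 without Fah off 3 or normal 1, with 9, 10 and 8 rises.

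**Figure D3:**
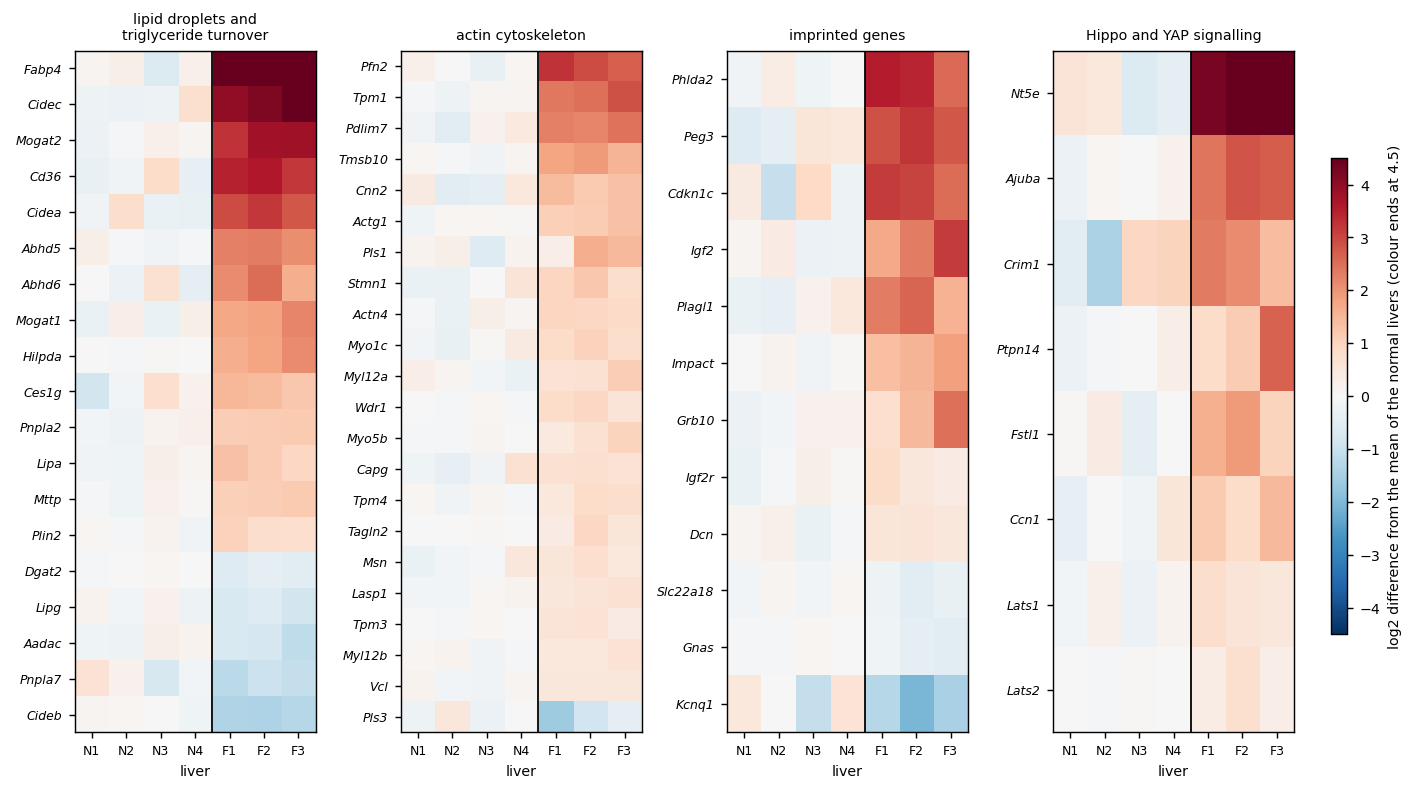
Called members of 4 gene lists in each liver, as the log2 difference from the mean of the normal livers (N1 to N4, normal; F1 to F3, Fah off). Colour saturates at 4.5. Red rows fill the Fah off columns of all 4 panels, with blue rows at the foot of the lipid, actin and imprinted panels, the last of them Cideb, Pls3 and Kcnq1. Igf2, Grb10 and Ptpn14 are strongest in F3.

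Carriers for amino acids split into rises and falls of equal number, 8 and 8 of 23 tested, together well above the 36.2% background. Slc1a1, a glutamate and cysteine carrier, read 63.8, 51.2, 117.2 and 217.4 in the normal and 1109, 977.9 and 1043 in the Fah off mice (3.30 ± 0.37). Slc7a5 and Slc3a2, the 2 chains of the LAT1 carrier of large neutral amino acids, among them tyrosine, rose together: Slc7a5 read 26.5, 27.7, 75.4 and 68.8 in the normal and 344.2, 247.4 and 326.2 in the Fah off mice (2.51 ± 0.32) and Slc3a2 680.4, 689.6, 669.1 and 808.4 in the normal and 2869, 2857 and 3627 in the Fah off mice (2.11 ± 0.13). The creatine carrier Slc6a8 rose by 1.76 ± 0.28. Falls held the betaine carrier Slc6a12 (-2.71 ± 0.21), the glutamate carrier Slc1a2, the glutamine carrier Slc38a3 (-1.78 ± 0.13) and the ornithine carrier Slc25a15 (-1.27 ± 0.18). Gars, the tRNA synthetase for glycine, rose to 1728 to 1922 from 611.7 to 655.1 (1.49 ± 0.11), but the synthetases as a list (5 higher and 3 lower of 28) were near the background, and without Fah off 3, normal 1 or normal 2 the falls were 1. Ddit4, an inhibitor of the growth kinase mTORC1, rose 4.09-fold (2.03 ± 0.15, 988.4 to 1050.3 against 190.0 to 289.5).

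Among sugar carriers Slc2a2, the glucose carrier of hepatocytes, read 3981, 4337, 4525 and 4007 in the normal and 788.8, 826.5 and 731.9 in the Fah off mice (-2.41 ± 0.30), and Slc2a1, the carrier of most other cells, rose (1.60 ± 0.22, 666.8, 697.0 and 544.0 off NTBC). Copper genes moved apart, with the chaperone Atox1 (1.21 ± 0.21) and the pump Atp7a (1.22 ± 0.15) higher and Ccs, which loads superoxide dismutase, lower (-1.30 ± 0.11). Of 9 carbonic anhydrases 1 rose and 4 fell: Car2 read 165.9, 183.0, 263.1 and 243.7 in the normal and 878.2, 1711 and 1397 in the Fah off mice (2.55 ± 0.25), while Car14 (-2.79 ± 0.33), the mitochondrial Car5a (-2.55 ± 0.25) and Car3 (-1.84 ± 0.49) fell. Car3 read 7314, 6552 and 1181 off NTBC, lowest in Fah off 3. Fxyd1, a regulator of the sodium pump, fell by 2.71 ± 0.19, at 530.8 to 611.4 against 3039 to 4406. Channels had no shared direction (8 higher and 6 lower of 38). Kcnj8, a pore of ATP-sensitive potassium channels, read 35.7, 52.5, 58.6 and 47.1 in the normal and 577.3, 550.2 and 372.5 in the Fah off mice (3.12 ± 0.21, adjusted p = 1.62e-06), and the chloride channel Clcn2 read 159.7, 153.3, 204.8 and 241.7 in the normal and 37.6, 27.8 and 7.1 in the Fah off mice (-2.65 ± 0.34). Among subunits of the proton pump that acidifies lysosomes Atp6v1b2 (1.22 ± 0.19), Atp6v1c1 (0.85 ± 0.19) and Atp6v1a (0.79 ± 0.15) rose and Atp6v0d1 fell (-0.51 ± 0.11). Lysosomal hydrolases and membrane proteins as a list were balanced, 14 higher and 13 lower of 55. They were 8 and 15 with median scaling, 9 and 7 without Fah off 2 and 14 and 8 without Fah off 3. Hexa (1.31 ± 0.19) and Ctsd (1.13 ± 0.12) rose, and Naglu fell (-1.23 ± 0.16).

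One-carbon metabolism was the list with the most falls. The methionine cycle makes the methyl donor of the liver, and folate enzymes pass single carbons to nucleotides. Of 30 tested genes 16 fell and 6 rose (median -0.75), and 11 of 17 in the methionine cycle and transsulfuration fell. Ftcd, which ends histidine breakdown in the folate pool, read 3817, 4058, 4644 and 4064 in the normal and 1129.7, 809.9 and 290.1 in the Fah off mice (-2.66 ± 0.35). Cbs, the entry of homocysteine into cysteine synthesis, read 3661, 3292, 3074 and 2949.7 in the normal and 709.2, 625.3 and 512.5 in the Fah off mice (-2.39 ± 0.14, adjusted p = 9.14e-07). Dmgdh (-2.32 ± 0.17), Gamt (-2.05 ± 0.15), Gnmt (-1.42 ± 0.15), Ahcy (-1.30 ± 0.11) and Mat1a (-0.98 ± 0.18) fell too, and Nnmt, which was uneven among the controls (200.8, 436.7, 50.4 and 193.2), fell by 2.27 ± 0.53. Mat2b, a regulatory subunit of methionine adenosyltransferase, rose by 0.93 ± 0.21. The 6 rises were all under 2-fold.

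Nucleotide genes were called more often than the background, with 11 rises and 9 falls of 39. Enzymes of pyrimidine breakdown fell, namely Dpyd (321.5 to 412.6 against 3777 to 5179, -3.55 ± 0.17), Dpys (-0.95 ± 0.20) and Upb1 (-1.36 ± 0.14). Ctps, which makes CTP, read 146.6, 137.5, 123.1 and 174.1 in the normal and 1142, 1049 and 1285 in the Fah off mice (2.92 ± 0.15, adjusted p = 3.03e-07), and the salvage enzymes Cda (2.17 ± 0.24), Uck1 (1.06 ± 0.15) and Hprt (1.02 ± 0.12) rose, while the adenosine kinase Adk fell (-1.41 ± 0.16). The 2 uridine phosphorylases moved in opposite directions. Upp2, the largest change of the list, read 1932, 1966, 3405 and 1789 in the normal and 99.9, 83.1 and 29.2 in the Fah off mice (-4.90 ± 0.35, adjusted p = 2.46e-06), its other probe set fell too (-4.58 ± 0.43), and Upp1 rose (1.45 ± 0.33). Uox, urate oxidase, fell (-1.68 ± 0.11), and so did Aox3, an aldehyde oxidase (-2.99 ± 0.15). Polyamine genes rose in 6 of 10 cases and fell in 1. Odc1, the first enzyme of synthesis, read 616.6, 672.6, 648.4 and 507.2 in the normal and 972.0, 1445 and 1804 in the Fah off mice (1.15 ± 0.20), and Sat1, which marks polyamines for export, read 472.2, 523.2, 561.4 and 512.0 in the normal and 1271, 1219 and 1575 in the Fah off mice (1.37 ± 0.13). Smox (0.83 ± 0.16) and Srm (0.56 ± 0.12) rose and the regulator Azin1 fell (-0.64 ± 0.13). The other probe set of Azin1 had the opposite sign and was not called (0.36 ± 0.18). The other probe sets of Odc1 were not called either (0.39 ± 0.14 and 0.41 ± 0.21). With the mean of a gene's probe sets 6 polyamine genes rose and 0 fell.

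Selenoprotein genes had 8 falls and 2 rises of 19. Dio1, the deiodinase that activates thyroid hormone, read 2183, 1737, 1784 and 2701 in the normal and 184.6, 198.7 and 154.3 in the Fah off mice (-3.46 ± 0.27, adjusted p = 4.25e-06). Txnrd2 (-1.55 ± 0.15), Msrb1 (-1.29 ± 0.11), the selenium recycling enzyme Scly (-0.94 ± 0.18) and, by less, Gpx1 (-0.56 ± 0.10) fell. Gpx3, a plasma peroxidase made mostly in kidney, rose instead (3.03 ± 0.36), at 594.8, 700.5 and 717.6 off NTBC and 78.9, 102.2, 27.6 and 118.4 in the normal livers. Gpx4 rose by 0.74 ± 0.14.

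Genes for making ribosomes rose by modest amounts and in number. Of 52 tested nucleolar and polymerase I genes 18 rose and 2 fell (34.6% and 3.85%; median 0.3). Nle1 (1.94 ± 0.32), Nop58 (1.61 ± 0.23) and Gnl3, nucleostemin (1.36 ± 0.16, 738.8 to 966.3 against 287.5 to 367.0), were the largest, and Polr1d (1.12 ± 0.15) and the polymerase I factor Rrn3 (1.01 ± 0.14) followed. The other probe set of Polr1d was not called (-0.11 ± 0.16). The polymerase I activator Ubtf fell (-0.64 ± 0.16). Mitochondrial ribosome and import genes were called less often than all genes (17 higher and 11 lower of 102), and their balance turned to 8 higher and 13 lower with median scaling. Leaving out one liver gave 9 to 18 rises and 6 to 13 falls, with 9 or 10 rises without Fah off 2, Fah off 3 or normal 4 and 6 or 7 falls without Fah off 1, Fah off 2, normal 1 or normal 2. Splicing genes had 15 rises and 5 falls of 63, and 8 and 5 with the mean of a gene's probe sets. Snrpa1, of the U2 particle, read 344.3, 315.5, 314.5 and 313.4 in the normal and 1136, 1213 and 1508 in the Fah off mice (1.96 ± 0.15), and Esrp2, an epithelial splicing factor, fell to 148.5 to 238.8 from 674.8 to 730.5 (-1.86 ± 0.17). Chromatin regulators had 8 rises and 7 falls of 57, and 5 rises without Fah off 2 or normal 2. Sirt2 fell (-1.88 ± 0.41), but its controls differed by genotype (466.5, 496.3, 189.4 and 134.6), and the linker histone gene H1f2 rose (1.51 ± 0.23).

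Retinoid genes fell more often than they rose. Genes of G protein-coupled receptors were called about as often as all genes, more of them lower than higher. Of 24 retinoid genes 12 fell and 5 rose (median -0.49). The receptor Rxra fell to 425.6 to 750.3 from 1577 to 1930 (-1.51 ± 0.20), the retinol enzymes Rdh16 (-1.48 ± 0.18) and Dhrs3 (-1.08 ± 0.18) fell, and Rarres2, the secreted protein chemerin, read 5712, 5698, 4404 and 4391 in the normal and 1363, 1142 and 1406 in the Fah off mice (-1.94 ± 0.24). Lrat, which stores retinol in stellate cells, rose 2.64-fold, and so did the retinoid target Tgm2 (1.42 ± 0.20). G protein-coupled receptors and their regulators had 12 falls and 4 rises of 48 (33.3% called, against 36.2% of all genes, median 0.02). The succinate receptor Sucnr1 fell by 2.43 ± 0.51, with uneven controls (367.0, 501.7, 158.9 and 75.3), and the glucagon receptor Gcgr (-1.19 ± 0.16), the adrenoceptor Adra1b (-1.94 ± 0.43) and the vasopressin receptor Avpr1a (-1.51 ± 0.23) fell. Adgrg1, an adhesion receptor, rose to 247.8 to 340.5 from 22.2 to 59.8 (2.66 ± 0.29). Without normal 4 the rises in this list were 7 and the falls 10. They were 9 and 12 with the mean of a gene's probe sets, and 8 and 10 against the wildtype livers alone. Hsd11b1, which regenerates active glucocorticoid, fell (-1.87 ± 0.26). Of 2 genes that glucocorticoids induce, Tsc22d3 fell (-1.60 ± 0.27) and Fkbp5 rose (1.31 ± 0.20).

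Genes of insulin, glucagon and cAMP signalling had 8 falls and 3 rises of 38. Adcy9, an adenylyl cyclase, read 634.8, 650.3, 777.0 and 701.5 in the normal and 242.6, 226.6 and 197.4 in the Fah off mice (-1.59 ± 0.14), the insulin receptor partner Grb14 fell (-0.78 ± 0.20), and its relative Grb10 was among the rises. Matrix proteases and their inhibitors were even, 6 and 6 of 34. The macrophage elastase Mmp12 read 6.7, 5.5, 11.7 and 9.8 in the normal and 234.4, 221.4 and 33.2 in the Fah off mice, lowest of the 3 in Fah off 3 (2.89 ± 0.53), while prekallikrein (Klkb1) fell to 117.2 to 276.9 from 2318 to 3196 (-3.71 ± 0.27) and the broad protease trap Pzp fell as well (-1.56 ± 0.14). Of 57 ubiquitin genes 13 rose and 7 fell, with 8 rises with median scaling or without Fah off 1, Fah off 2 or normal 2 (4 falls without Fah off 1). Ube2k, a conjugating enzyme, had the largest rise (1.39 ± 0.13) and the deubiquitinase Usp21 the largest fall (-1.10 ± 0.21). The other probe sets of Ube2k were not called (0.66 ± 0.31 and 0.54 ± 0.21).

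In the circadian clock list 6 of 21 fell and 3 rose. The clock output factor Dbp read 359.6, 458.2, 1491 and 907.9 in the normal and 153.9, 165.9 and 125.9 in the Fah off mice (-2.15 ± 0.39), Nr1d1 read 482.3, 605.6, 966.7 and 863.0 in the normal and 423.6, 317.3 and 266.5 in the Fah off mice (-1.07 ± 0.25), and the deadenylase Noct fell by 1.59 ± 0.29. For Dbp the knockout controls stood above the wildtype ones. The core activators Arntl (-0.27 ± 0.25) and Clock (0.33 ± 0.15) and the repressors Per1 (-0.28 ± 0.24) and Per2 (-0.44 ± 0.23) were not called. The labels do not give the hour at which the livers were taken. Against normal 3 alone none of the list rose and 5 fell, and against both knockout controls 1 rose and 9 fell.

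Immune genes gave no common direction. Of 44 chemokine and cytokine genes 11 rose and 9 fell, or 9 and 5 without Fah off 1. The chemokine Ccl6 read 90.5, 104.4, 58.4 and 86.9 in the normal and 562.8, 668.8 and 448.1 in the Fah off mice (2.59 ± 0.21), Ccl25 rose by 2.39 ± 0.22, and the interferon-gamma-induced Cxcl9 fell to 10.8 to 33.8 from 118.2 to 300.8 (-2.99 ± 0.41). Ackr3, a chemokine scavenger, rose by 2.66 ± 0.24. Il1rap fell but the signalling chain Il1r1 of the same receptor rose (1.96 ± 0.45), as did Il4ra (1.74 ± 0.23) and the alarm cytokine Il33 (1.56 ± 0.22). Interferon-stimulated genes were mixed (7 higher and 5 lower of 35): Mx1 read 29.4, 12.7, 65.5 and 49.7 in the normal and 230.5, 228.0 and 206.6 in the Fah off mice (2.37 ± 0.36) and Rsad2 144.8, 167.3, 289.2 and 238.9 in the normal and 992.0, 1031 and 587.9 in the Fah off mice (2.01 ± 0.27), and Ifitm3 (-1.47 ± 0.19), Bst2 (-0.96 ± 0.21) and Ifit1 (-0.87 ± 0.25) fell. Against the wildtype livers alone this list had 12 rises and 3 falls, and against the knockout livers on NTBC 3 and 9. The rises were 3 without Fah off 1, normal 1 or normal 2 and 4 without Fah off 2, and the falls 3 without Fah off 3. Of 16 NF-kappa B genes 2 rose and 3 fell, with the co-regulator Bcl3 (-1.56 ± 0.27) and the kinase subunit Ikbkg (1.26 ± 0.21) the largest.

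Genes of other epithelia and of neurons were mostly under the filter, with a few large exceptions. Sprr1a, a protein of the cornified envelope of skin, read 91.2 to 134.5 in the normal and 3705, 3195 and 2349 in the Fah off mice, a rise of 23.6-fold (4.56 ± 0.20, adjusted p = 7.61e-08). With Ly6d, another skin gene, it led the 4 rises among the 11 tested stratified epithelium genes, of 27 on the array. The protease inhibitor Cstb (1.36 ± 0.11) and the crosslinking enzyme Tgm1 (0.94 ± 0.29) rose less, and the desmosome gene Dsc3 fell (-0.89 ± 0.24). The membrane protease Prss8, prostasin, rose to 226.2 to 349.4 from 12.9 to 78.8 (2.50 ± 0.40), and Tmprss2 to 592.8 to 763.5 from 168.1 to 232.9 (1.72 ± 0.16). Of 17 gut and pancreas genes tested 3 rose and 1 fell, the rises being the pancreatic inhibitor Spink1 at 434.5 to 481.2 against 5.9 to 11.3 (4.72 ± 0.19), the mucosal peptide Tff3 at 236.2 to 289.7 against 76.5 to 136.3 (1.30 ± 0.19) and the mucin Muc13 (1.12 ± 0.26). Bex4, known from brain, read 55.7, 38.5, 37.8 and 60.9 in the normal and 515.1, 527.3 and 623.0 in the Fah off mice (3.30 ± 0.19), and Bex2 rose by 1.31 ± 0.23, while the synaptic vesicle gene Syt1 fell (-1.61 ± 0.26). Of 33 axon guidance genes 6 rose and 8 fell, or 5 and 4 without Fah off 3. Beside Unc5b, Sema3e rose (2.10 ± 0.50, with 117.4, 190.3 and 37.9 off NTBC against 8.3 to 24.0), and Sema4g (-1.58 ± 0.15) and Nrp1 (-1.28 ± 0.16) fell. The sialyltransferase St3gal6 read 59.9, 72.3, 55.0 and 53.1 in the normal and 673.5, 1014 and 1434 in the Fah off mice (3.85 ± 0.25), the largest change among 43 glycosylation genes, of which 12 rose and 8 fell (5 falls without Fah off 2 or Fah off 3, 4 without normal 2). The vesicle GTPases Rab30 (2.22 ± 0.30) and Rab3d (1.80 ± 0.19) rose, and Rab25 (-1.43 ± 0.37) fell, in a secretory list near the background (15 higher and 9 lower of 72).

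Markers of the cell types of liver were read beside these lists. All 14 hepatocyte markers fell (median -0.54), 7 of 14 after quantile normalization, and their summed signal was 121450 to 133643 in the Fah off and 191830 to 203351 in the normal livers. Cholangiocyte markers had 7 rises and 1 fall of 9 tested, of 16 on the array. A marker dim in normal liver passes the filter only where other arrays are brighter, so the filter partly sets this count of rises. The summed signal of all 16 was 2291 to 2531 against 755 to 1227. Prom1 (2.86 ± 0.33), Krt23 (3.07 ± 0.46), Bicc1 (2.73 ± 0.21) and Epcam (2.09 ± 0.41) were among the rises, but the defining keratins Krt7 and Krt19 were under the filter, at 7.7 to 36.0 and 11.8 to 42.5 over all 7 livers. Stellate cell markers had 6 rises of 17, Lrat, Hgf, Pdgfra (1.55 ± 0.30) and Lum (1.06 ± 0.17) among them, and Des (-0.43 ± 0.20) and Col1a1 (0.39 ± 0.33) were not called. Their sum was 9588 to 12436 against 6728 to 7615. Of 19 Kupffer cell and macrophage markers 3 rose, Lyz2 (1.34 ± 0.19), Cd68 (0.81 ± 0.19) and Vsig4 (0.71 ± 0.17). This count was 9 without normal 4, the highest control at a summed signal of 15336, and the Fah off livers lay at 12436 to 15843. Erythroid and platelet markers had 3 falls of 8. Alas2, the first haem enzyme of red cell precursors, read 2208, 1593, 1150.5 and 1352 in the normal and 183.3, 148.5 and 16.1 in the Fah off mice and the sum of the markers was 1048 to 1403 against 2576 to 3436. Without Alas2 the sum was 1032 to 1220 against 1228 to 1792, and the haemoglobin gene Hba-a1, under the filter, was at 34.2 to 54.5 against 21.1 to 56.4. Sums of B cell (2507 to 2831 against 2725 to 2954), T and NK cell (823 to 1025 against 817 to 1412) and endothelial markers (9954 to 13525 against 10628 to 13384) overlapped between the groups. None of the 5 tested T and NK cell markers was called by limma (1 at an unadjusted p under 0.05, and 1 called lower without normal 1), and none of the 3 of mesothelium, adipose tissue and muscle (0 at an unadjusted p under 0.05). Neutrophil and mast cell markers were at 1898 to 2041 against 1269 to 2389, and Lcn2, which hepatocytes also make, was the one that rose (2.48 ± 0.43). The part of these marker changes in the gene lists above was not tested.

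**Figure D4:**
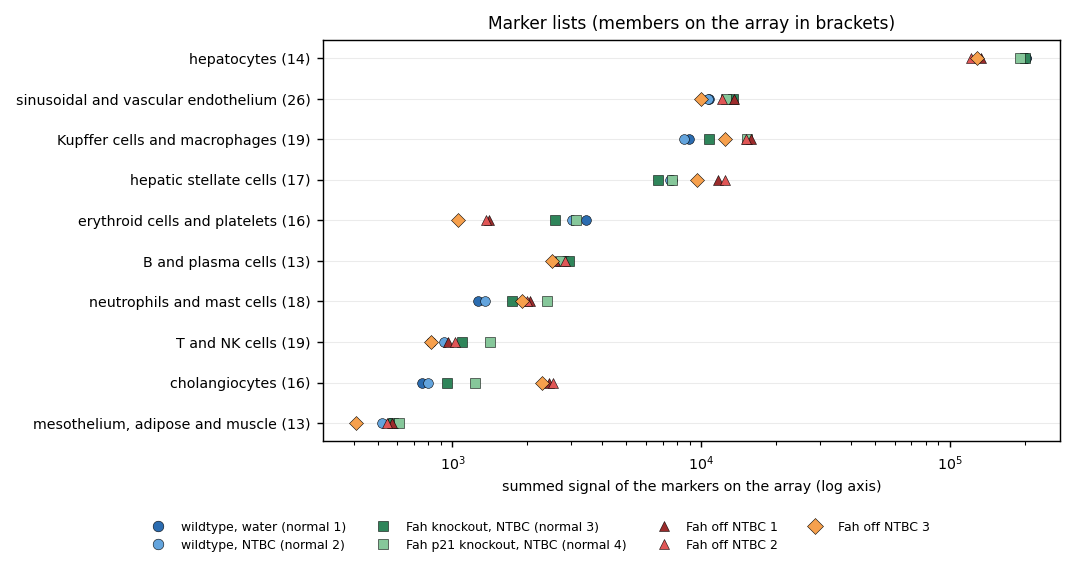
Summed signal of each marker list in the 7 livers, on a log axis, 1 point per liver, over the members on the array. Cholangiocyte and stellate sums lie higher in all 3 Fah off livers, hepatocyte and erythroid sums lower, and the other 6 lists overlap between the groups.

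Genes near Fah on its chromosome were read separately. Of the 10 nearest tested genes on each side 8 of 20 were called, a share near the background of 36.2%, with 5 lower and 3 higher. The nearest gene on one side, Abhd17c, fell to 377.6 to 536.0 from 1018 to 1219 (-1.26 ± 0.14), and the second nearest on the other, Nox4, a hydrogen peroxide-making oxidase, read 618.5, 652.4, 786.1 and 694.6 in the normal and 53.7, 69.8 and 3.9 in the Fah off mice (-4.08 ± 0.54, adjusted p = 0.00017). The knockout controls on NTBC, 786.1 and 694.6, were above the wildtype ones for Nox4. Homer2 (-1.06 ± 0.14), Pde8a (-1.31 ± 0.15) and Btbd1 (-0.70 ± 0.15) fell and Tmem135 (0.58 ± 0.15), Hikeshi (0.52 ± 0.15) and Eed (0.41 ± 0.14) rose. Zfand6, next to Fah on the side of Nox4, was not called (0.04 ± 0.14). The groups did not overlap for the same 8 of the 20 genes, a share near the 43.3% of all tested genes. These 8 were picked by their calls, which go with such a separation.

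**Figure D5:**
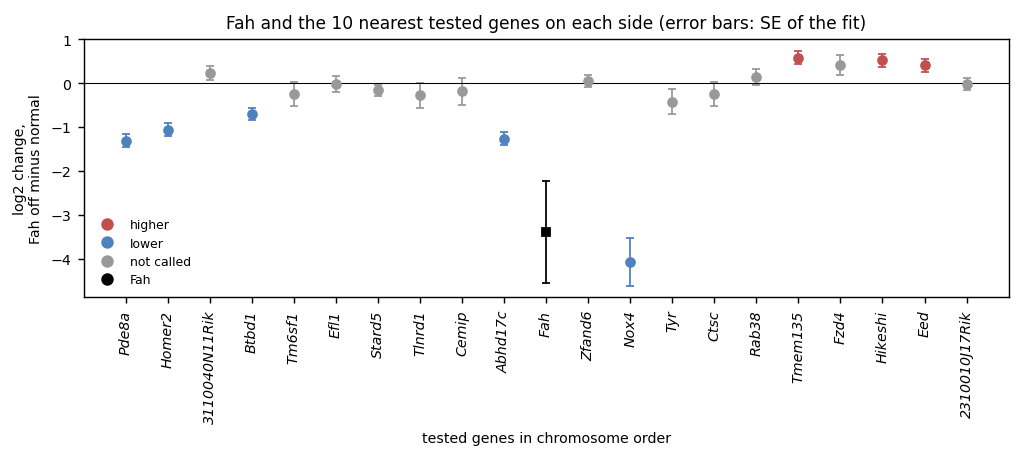
Log2 change (Fah off minus normal, with its SE) of Fah and of the 10 nearest tested genes on each side in chromosome order. Nox4 at -4.08 is the largest change, 5 neighbours are lower, 3 are higher and 12 are not called.

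The Fah off livers differed among themselves, mostly through Fah off 3. Of the 570 genes that fell at least 2-fold, Fah off 3 was the lowest of the 3 for 383 (67.2%), Fah off 1 for 79 and Fah off 2 for 108. Of the 761 that rose at least 2-fold it was the highest for 370 (48.6%). The widest ranges were those of Nat8f2 (1108, 991.5 and 110.9), Nat8 (530.5, 100.3 and 18.2), Alas2, Slc22a30, Ptgr1, Car3, Idi1 (543.8, 536.5 and 81.5), Spata5 (37.5, 273.5 and 231.8), Nox4 and Cutal (111.0, 135.7 and 15.6). Fah off 3 was the lowest of the 3 for Nat8f2, Nat8, Alas2, Slc22a30, Car3, Idi1, Nox4 and Cutal, and the highest for Ptgr1. Nat8 and Nat8f2 are close copies, so their signal is uncertain between them. Spata5 was the exception, with Fah off 1 at the level of the normal livers (31.0 to 46.8). Its other tested probe set did not show this, with 73.3, 96.3 and 86.7 off NTBC against 24.0 to 47.9. Idi1, an enzyme of cholesterol synthesis, varied among the controls too (3170.4, 1538, 1145 and 850.6).

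Most calls named above did not rest on one liver, but some did, and their log2 change without that liver is given in brackets. Without Fah off 1 the calls of Crim1 (1.76), Eed (0.44), Fah (-3.43), Lats1 (0.54), Lats2 (0.50), Nrg4 (1.09), Pls3 (-0.65) and Tgm1 (0.97) were lost. Leaving out Fah off 2 ended those of Eed (0.43), Fah (-3.35), Hikeshi (0.50), Kcnq1 (-1.38), Lats1 (0.64), Lats2 (0.31), Nat8 (-2.41), Nrg4 (1.06), Spata5 (1.18), Tgm1 (0.92) and Tmem135 (0.53). Without Fah off 3 the calls of Bambi (1.23), Eed (0.34), Fah (-3.39), Hbegf (0.83), Hikeshi (0.49), Idi1 (-1.44), Ifit1 (-0.59), Nat8 (-1.43), Rab31 (0.80), Spata5 (1.29) and Tgm1 (0.93) were lost. Leaving out normal 1 ended those of Cutal (-1.52), Eed (0.40), Fah (-2.56), Idi1 (-1.93), Kcnq1 (-1.45), Lats2 (0.44), Rab31 (0.82) and Spata5 (1.57). Without normal 2 the calls of Cutal (-1.46), Eed (0.36), Fah (-2.55), Lats2 (0.42), Nrg4 (1.12), Pls3 (-0.80), Rab31 (0.86) and Tgm1 (0.73) were lost. Leaving out normal 3 ended those of Cutal (-1.51), Eed (0.43), Lats2 (0.46) and Nat8 (-2.27). Without normal 4 the calls of Lats2 (0.46) and Nat8 (-2.27) were lost. All kept their direction.

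The controls differed by genotype and treatment. Both knockout controls lay nearer to the Fah off livers than both wildtype controls for 41.9% of the 761 genes that rose at least 2-fold and for 33.3% of the 570 that fell, against 29.9% of all tested genes, and on the far side for 14.8% and 20.7%, against 27.1%. The 4 normal livers enter the changes themselves, so these shares are a description. Crim1 (33.4, 13.1, 107.7 and 113.9) and Rab31 (79.8, 87.1, 188.3 and 188.9) show such an order among the rises, and Slc10a2 (284.9, 314.5, 193.9 and 99.3), Oat (7048, 7348, 3910.4 and 3931) and Car14 (954.0, 1057, 545.5 and 458.8) among the falls. Against normal 3 alone, where the lone control is assumed to vary like the other groups, 1604 genes were called in place of 3327, 52 of the 300 genes named here lost their call with an unchanged direction, and many list counts were smaller. Actin genes then had 12 rises, ribosome biogenesis genes 9, TGF beta genes 7, Hippo genes 5 and imprinted genes 8. One-carbon genes had 15 falls and 1 rise, retinoid genes 6 falls, peroxisome genes 5 and selenoprotein genes 4.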

How the data were processed

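The 430A arrays measured liver RNA. Per the submitters' processing notes the authors made the deposited signals with GCOS 1.4.0.036 and the MAS5 method, and the values are linear intensities scaled on each array to a common trimmed mean. No background, present call or scan date is used here, and no genome build for the probe sets is named in the labels. Of the deposited probe sets 20380 have 1 gene symbol in the platform annotation, 691 several and 1555 none, and genes were named from the first kind only.

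Signals plus 9.9, their 10th percentile, were put on the log2 scale. Probe sets at or above the 40th percentile of their array on at least 2 of 9 arrays were kept (15307). limma 3.58.1 in R 4.3.3 fitted the 9 arrays of this design together, with an intensity trend in the variance and the 2 arrays of Fah p21 knockout mice off NTBC entering the estimate of spread alone. P-values were adjusted by Benjamini-Hochberg over all probe sets, and the threshold was 0.05. The brightest tested probe set over the 9 arrays represents a gene. Simulated data for this comparison, over 15307 probe sets, gave back 63% of changes of 2-fold and 96% of those of 4-fold, with 7 false calls. In them 100 probe sets per fold were changed, all upward, a far smaller share than was called in the data. The rates therefore describe that setting and not the recovery in these data.

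Genes were named by rule: the 20 largest rises and falls without overlap outside families of hepatocyte and stress genes, listed single genes and unnamed gene models, up to 6 called members per list, the 5 per direction with the largest moderated t, called neighbours of Fah, Fah, and the 10 called genes of widest range among the Fah off livers. Further list members were chosen as examples after their values were seen. The members and lists were chosen with earlier results of these data known. Alternatives covered the filter, the offset, scaling, the variance model, the choice of controls, the probe set rule, a minimum fold, each liver left out and the replicate number as a block. The titles do not say that arrays of the same number are related, so the numbers were not taken as pairs. Deviations of such arrays correlated at -0.22, -0.17 and -0.28. The normal livers differ in condition, so these values cannot settle whether a batch was shared. Promoter sequences are RefSeq's, on GRCm38.p6. The result of 1 gene list is not reported here.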

Additional observations from a re-analysis of the deposited data

Results flagged for a closer look

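In the normal group, for 15 of the 300 genes described, 1 liver stood apart from the other 3 by Dixon's test on its signal at the 95% level. Chance gives about 1 such group in 20, so a share of 5.0% is that of chance. The Fah off group of 3 is too small for this test. The liver that stood apart was the wildtype liver on water (normal 1) for Actg1 (1619.5 against 1946 to 1976) and Snrpa1 (344.3 against 313.4 to 315.5). It was the wildtype liver on NTBC for Cidea (26.2 against 6.5 to 8.5), G0s2 (815.8 against 348.5 to 391.1) and Unc5b (67.4 against 12.4 to 17.5). It was the Fah knockout liver on NTBC for Abcd2 (86.1 against 2.6 to 6.0), Fabp4 (69.0 against 122.6 to 134.8), Itga6 (13.0 against 8.2 to 8.7) and Upp2 (3404.9 against 1789 to 1966). It was the Fah p21 double knockout liver on NTBC for Cd68 (262.4 against 186.5 to 190.9), Cidec (78.6 against 34.6 to 35.1), Itga3 (238.9 against 141.8 to 152.3), Klf15 (1252 against 1952 to 2114), Polr1d (417.6 against 483.5 to 498.1) and Slc3a2 (808.4 against 669.1 to 689.6). Values are the signal of that liver against the range of the other 3. For Abcd2, Cidea and Slc3a2 the liver stood apart toward the Fah off livers without reaching their level. The same held for Cidec, Itga6 and Unc5b, where the ranking rule of no overlap required it. For Fabp4 and Upp2 the liver stood apart on the side away from the Fah off livers.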

How the results depend on the processing

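Of the 300 genes named, 240 kept their direction and their side of the threshold in all 21 alternative fits that tested them, and none of the 300 changed direction in any. The 60 others lost or gained a call, most often against normal 3 alone, where 52 lost it. With that genotype-matched control alone 2596 probe sets and 1604 genes passed, in place of 5437 and 3327, and 1515 of the genes were shared. With 2 controls it was 2824 genes for both knockouts on NTBC and 3266 for both wildtypes, so the count also differed with the controls used. A minimum of 2-fold, a stricter rule by construction, left 2265 probe sets and 1331 genes. Leaving out 1 liver at a time gave 4315 to 5246 probe sets and 2653 to 3218 genes. The other alternatives gave 2746 to 3460 genes. Median scaling gave 1534 higher and 1747 lower, and quantile normalization 1713 and 1747, against 1814 and 1513. The replicate number as a block gave 4463 probe sets and 2746 genes, 2615 of them shared, and 12 named genes lost their call in the blocked fit. The titles do not say that same-numbered arrays are related. Their deviations correlated below 0, but each normal liver was also a different condition, so these correlations cannot tell whether such arrays share a batch. Signals near the offset have little precision, so falls to such signals, as for Slc10a2 and Cnmd, are known in direction better than in size.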
